A study of Mus musculus with 19 samples.

Results

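The cytosolic ribosomal proteins were followed through the livers of mice that switch on a c-Jun~Fra-2 transgene, a forced pair of the AP-1 subunits Jun and Fra-2 (gene Fosl2). The members were the protein-coding genes whose symbols follow the pattern Rpl or Rps plus a number, with an optional a or x, together with Rplp0, Rplp1, Rplp2 and Rpsa. This rule uses names and no measured value, and it found 76 of the 55421 genes in the table, of which 46 encode proteins of the large subunit and 30 of the small subunit. It misses a few true subunits with other names, such as Rps3a1, Fau and Rack1, which are given separately.

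Polyadenylated RNA was sequenced from 19 liver libraries of 15 adult male C57BL/6 mice. The groups were 3 mutants at 2 months after induction, 6 controls at 2 months, the tumour-free liver (labelled periT) of 3 mutants at 9 months, 4 tumours of the same 3 mutants (2 of them from mutant 1), and 3 controls at 9 months. Doxycycline was taken away from all of these mice, the littermate controls included, at 3 weeks of age, which starts the transgene in the mutants alone. The sources used here do not give the promoter that drives the transgene. The 2 times were sequenced in 2 runs, and an effect of time cannot be told apart from one of the run. The labels describe the tissue as mostly hepatocyte or, in the 9-month mutants, mostly transformed hepatocyte.

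The ribosome is built from ribosomal RNA and one copy of most of these proteins, so cells make them in near-equal amounts. Their mRNAs start with a C followed by a run of pyrimidines, the terminal oligopyrimidine (TOP) tract, through which mTOR and Larp1 control their translation as a group, and Myc raises their transcription with growth. Ribosomal protein genes have left many processed pseudogenes in the genome, a point that bears on how their reads are counted, and Rplp0, also called 36B4, is a common reference gene in quantitative PCR of mouse liver.

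The start sequences are shown first because this tract defines the family's shared control. Starts were taken from RefSeq (GRCm38.p6), which had one for 56 of the 76 members (66 starts); each line gives 10 bases before and 20 bases from the annotated start on the gene's strand, with the tract in capitals. The first 5 are members that fell in 2-month mutants, and Rps6, the ribosomal target of the S6 kinases, follows with the textbook form of the tract.
Rps21, chr2:180257369-180257398, plus strand: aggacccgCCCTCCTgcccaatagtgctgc
Rps18, chr17:33955646-33955675, minus strand: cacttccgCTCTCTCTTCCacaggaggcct
Rpl35a, chr16:33056472-33056501, plus strand: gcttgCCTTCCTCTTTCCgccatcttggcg
Rps26, chr10:128626487-128626516, minus strand: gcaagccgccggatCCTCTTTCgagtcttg
Rps27, chr3:90213629-90213658, minus strand: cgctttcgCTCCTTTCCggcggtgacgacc
Rps6, chr4:86857348-86857377, minus strand: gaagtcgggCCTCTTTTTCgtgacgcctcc
The next 3 have no tract at the annotated start under the same rule: Rplp0, the member that rose, and Rpl5 and Rpl22, which fell. For genes with several RefSeq starts, one start is printed.
Rplp0, chr5:115559457-115559486, plus strand: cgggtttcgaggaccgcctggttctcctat
Rpl5, chr5:107900518-107900547, plus strand: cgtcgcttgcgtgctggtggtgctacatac
Rpl22, chr4:152325716-152325745, plus strand: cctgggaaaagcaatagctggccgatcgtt
The rule asked for a C with at least 4 further C or T letters, where the first C of the run lies within 5 bases of the start. A run that began earlier and crossed the start was not counted, as in Rpl7a, and this held for all genes alike. Under this rule 24 members (42.9%) had a tract, against 18.7% of 17436 other protein-coding genes with a start. In the window from 250 bases before to 50 after each start, read on both strands, CTTCCG, the core of ETS family sites, was held by 69.6% of members and 23.3% of the other genes; these letters can overlap the tract. CACGTG, the Myc E-box, was held by 10.7% and 8.91%, and TGANTCA, the AP-1 site, by 3.57% and 8.13%. The members with TGANTCA were Rpl9 and Rpl22. No match says only that these letters are not in the window.

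How much of each member the count table holds varied widely. The members together took only 0.255% to 0.449% of all counts per library, out of 14294611 to 22062341 counts, although ribosomal protein mRNAs are among the most abundant in mammalian cells. Per kilobase of main transcript, averaged over the 19 libraries, Rplp1 (366 CPM, counts scaled to the size of the library, per kilobase), Rpl4 (297), Rpl8 (240.3) and Rps15 (226) were among the highest. Rps23 (0.963), Rpl19 (0.825) and Rpl24 (0.614) stood lowest. Rps6 reached 4 to 23 counts and Rpl24 3 to 16 counts in a library.

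Many members share much of their sequence with other genes. Every 50-base stretch of each main transcript was looked up in the transcripts of all other annotated genes, and the share found nowhere else ran from 1.35% in Rps27 up to 100%, with a median of 49.7%. Across the 76 members this share and the level per kilobase had a Spearman rho of 0.433, and the number of pseudogenes named after the member (301 in all, for 61 members) and the level had one of -0.401. Both are descriptions across genes that share libraries, and whether the authors' counting dropped reads matching several genes was not tested, since the sources used here do not state the read length or the counting rule. Levels therefore cannot be compared between members, while the same member can be compared between libraries.

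**Figure D1:**
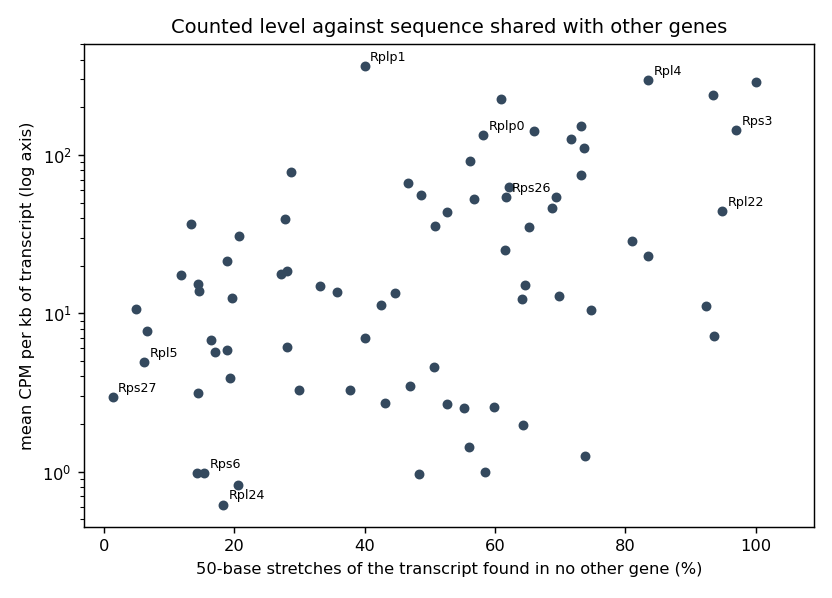
Mean level of each of the 76 members (CPM per kilobase of main transcript, averaged over the 19 libraries, log axis) against the percentage of its 50-base stretches found in no other gene; each point is a gene. Rpl24 and Rps6 sit low at 18.3% and 15.4%, Rps3 high at 97.0%, and many members lie between.

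The Fosl2 part of the transgene was plain in the counts. Fosl2 stood at 886, 815 and 639.7 CPM in 2-month mutants, against 8.37 to 19.2 CPM in 2-month controls, and at 405 to 936 CPM in tumour-free and tumour libraries, against 9.36 to 19.8 CPM in 9-month controls. For Fosl2, all groups of mutants lay far above their controls. Jun held 0.0612% to 0.0692% of all counts in 2-month mutants, against 0.000944% to 0.00229% in their controls. At 9 months it held 0.0522% to 0.0865% in tumour-free liver and 0.0394% to 0.0765% in tumours. The 9-month controls ran from 0.00197% to 0.0321%, the highest being control 1. Of Jun, Fosl2 and Myc, 1 was called higher in tumour-free liver and 1 in tumours.

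At 2 months, 35 of the 75 members tested fell in mutants, and 1, Rplp0, rose (edgeR's quasi-likelihood test, Benjamini-Hochberg adjusted p under 0.05 over all genes). Among all 13773 genes tested, 20.4% were lower and 22.3% higher, 42.7% in all. The members' median log2 change was -0.30, against 0.01 for all genes, and 68 of 75 members had a negative change. The count rests in part on mutant 3, without which 20 members were lower (2032 of all 13891 genes). It was between 6 and 22 under 4 other settings given in the closing section. Both subunits took part: 20 of 45 large-subunit members were lower and 1 higher, with a median of -0.30, and 15 of 30 small-subunit members were lower, with a median of -0.32. In 36 of the 76 members, every mutant library lay below every control library, as did 19.1% of the 13773 genes tested. The called changes ran from -0.94 to -0.26. They included, beside the members described below, Rpl6, Rpl7, Rpl7a, Rpl8, Rpl13a, Rpl29, Rpl30, Rpl34, Rpl36, Rpl36a, Rpl37 and Rpl37a of the large subunit, and Rps9, Rps12, Rps14, Rps15, Rps20, Rps25, Rps28 and Rpsa of the small subunit. Hepatocyte markers moved too: summed over 8 genes they reached 38865 to 51803 CPM in mutants and 118984 to 145624 CPM in controls, 6 of the 8 were lower and none was at 0. The 8 macrophage markers summed to 591 to 947 CPM in mutants and 280.1 to 545 CPM in controls, with 4 of 8 higher. Stellate and fibroblast markers summed to 381 to 662 CPM in mutants and 201 to 336 CPM in controls (4 of 7 higher), and bile duct markers to 126 to 565 CPM in mutants and 49.3 to 100.3 CPM in controls (2 of 5 higher). Dividing cell markers summed to 8.56 to 18.1 CPM in mutants and 4.15 to 7.13 CPM in controls (3 of 4 tested higher), and erythroid markers to 105 to 156 CPM in mutants and 246 to 318 CPM in controls (1 of 4 tested lower). The part of these in the members' values was not tested, and in bulk tissue fewer cells of a type and less RNA per cell cannot be told apart.

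**Figure D2:**
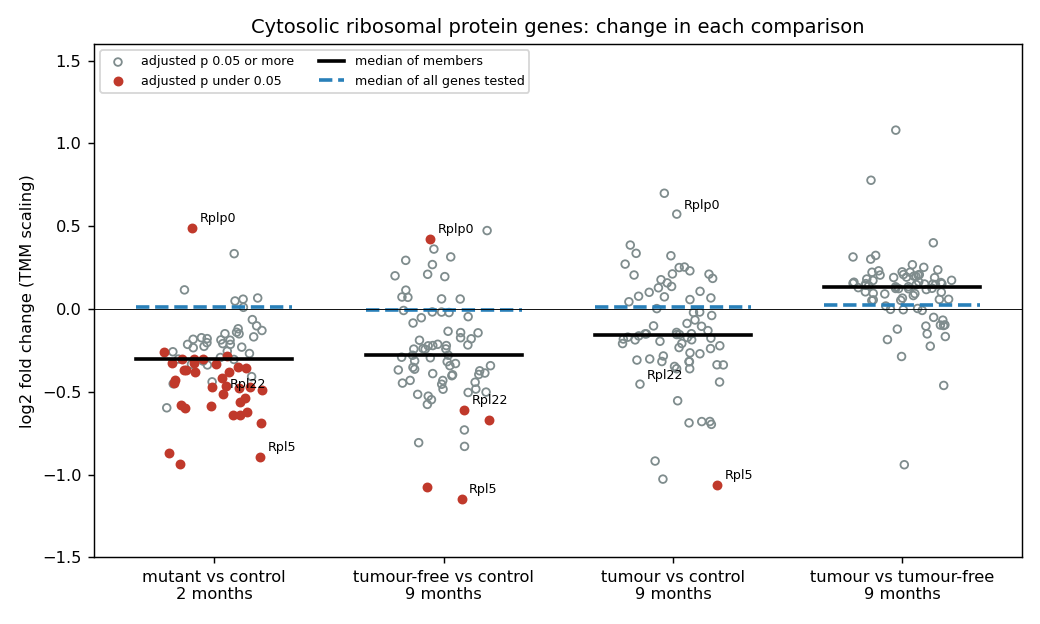
Log2 fold change of each member in 4 comparisons (points; red, adjusted p under 0.05), with the median of the members (black) and of all genes tested (dashed blue), under TMM scaling. In 2-month mutants 35 members are red below 0 and Rplp0 alone above; the tumour against tumour-free column holds no red point.

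The direction of the whole family rests on how libraries are scaled. Albumin held 3.04% to 3.65% of all counts in mutants and 7.58% to 9.43% in 2-month controls. The 50 most abundant genes held 29.6% to 32.8% of counts in mutants, against 34.5% to 36.8% in 2-month controls. With library size alone as the scale, the median of all genes moved to 0.29 and that of the members to -0.03, and 7 members were lower and 4 higher, with a background of 11.3% lower and 39.5% higher among all genes. The gap between members and all genes was -0.32 with TMM, with library size, with DESeq2's size factors and with the upper quartile. A change of scale moves all genes of a comparison by nearly the same amount, so this gap could hardly differ between scalings. The members took 0.343%, 0.314% and 0.330% of all counts in mutants, against 0.301% to 0.346% in controls, and these shares overlapped.

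**Figure D3:**
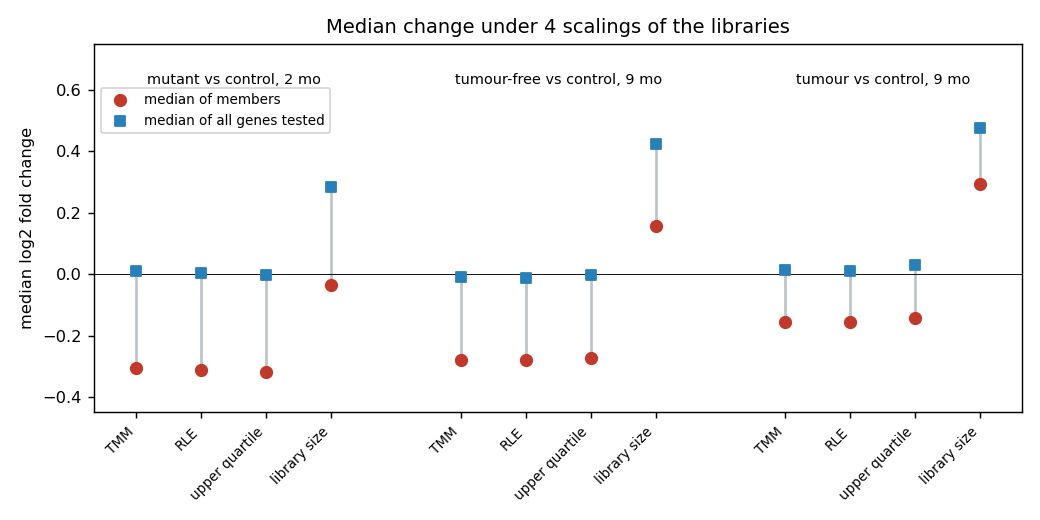
Median log2 change of the members (red circles) and of all genes tested (blue squares) under 4 scalings, for 2-month mutants, tumour-free liver and tumours, each against its own controls. The members lie below all genes in each of the 12 pairs, at -0.30 against 0.01 with TMM and -0.03 against 0.29 with library size in 2-month mutants. A change of scale moves both medians nearly alike, so the 4 pairs of a comparison are not separate observations. The sign of the members' own median differs between scalings at 9 months.

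Members with little and with much shared sequence gave similar values. Of the 38 members with at least 50% of their stretches unique, 18 were lower and 1 higher, with a median of -0.30. Of the other 37 tested, 17 were lower and none higher, with a median of -0.33. By the start tract as defined above, 9 of 24 members with it were lower, as were 15 of 31 without it, and the median was -0.30 in both. Members such as Rpl7a, whose run begins earlier and crosses the start, stand among those without it. Of the 20 members with no matched start, 11 were lower, with a median of -0.31. Among all genes tested, 20.4% were lower. The difference between these counts was not tested.

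Rplp0 was the only member called higher at 2 months; 6 others had positive changes that did not pass the test. It encodes the base of the ribosomal stalk, on which dimers of Rplp1 and Rplp2 sit and recruit the elongation factors; the gene lies at chr5:115559467-115563727 on the plus strand (GRCm38). It stood at 212, 213 and 179 CPM in 2-month mutants, against a lowest value of 138, a median of 144 and a highest of 149.7 CPM in 6 controls. Every mutant was above every control, by 0.49 ± 0.081 on the log2 scale (SE, adjusted p = 0.000596, edgeR quasi-likelihood), and the call held under each alternative run. Rplp0 had the highest log2 change of the 75 members.

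Its stalk partners did not rise on this scale. Rplp1 stood at 159.7, 132 and 122 CPM in mutants, against 171 to 213 CPM with a median of 195 in controls, and fell by 0.48 ± 0.12 (adjusted p = 0.00712, edgeR quasi-likelihood); with library size alone the change was -0.21 and missed the threshold, as it did with 1 fit over all 5 groups (adjusted p = 0.0513). Rplp2 stood at 51.2, 49.8 and 47.6 CPM in mutants, against 37.1 to 55.8 CPM in controls, inside their range (log2 change 0.07, adjusted p = 0.704); with library size alone it was higher, at 0.34 (adjusted p = 0.0365). The ratio of Rplp0 to Rplp1 counts does not depend on scaling: it was 1.33, 1.61 and 1.47 in 2-month mutants, against 0.660 to 0.854 in their controls. At 9 months it was 1.46, 1.27 and 1.13 in tumour-free liver and 0.789, 1.29, 1.48 and 1.08 in tumours, against 0.840, 0.486 and 0.732 in controls. Only 1 library of a mutant, the first tumour of mutant 1, fell within the range of the controls of its time. Rplp0 and Rplp1 were called in opposite directions at 2 months, so their ratio there is not a separate observation. The ratio of Rplp0 to Rplp2 counts overlapped with controls at both times. It was 4.14, 4.27 and 3.76 in 2-month mutants, against 2.68 to 3.91 in their controls. At 9 months it was 4.14, 3.74 and 3.51 in tumour-free liver and 3.47 to 4.41 in tumours, against 2.05 to 3.57 in controls.

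On the TMM scale, Rpl22, an RNA-binding protein of the large subunit (chr4:152325742-152334071, plus strand), was lower in every mutant library than in every control of its time. It stood at 88.0, 75.1 and 71.9 CPM in 2-month mutants, against 104 to 119 CPM with a median of 113 in controls, and the groups did not overlap. The log2 change was -0.51 ± 0.091 (SE, adjusted p = 0.000949), and -0.24 with library size alone, still past the threshold. At 9 months the alternatives brought the change as close to none as -0.17 in tumour-free liver and -0.004 in tumours. With 94.8% of its stretches unique, Rpl22 is among the members whose reads are least open to mixing with copies. Its paralog Rpl22l1 was not called (log2 change -0.26, adjusted p = 0.187).

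Rpl5, which carries the small 5S ribosomal RNA into the large subunit and can bind Mdm2 to hold p53 stable (chr5:107900502-107909005, plus strand), had the smallest adjusted p of all members that fell. Its counts gave 7.02, 7.43 and 6.99 CPM in 2-month mutants, against 11.4 to 15.2 CPM with a median of 13.4 in controls, a log2 change of -0.89 ± 0.12 (adjusted p = 0.000161). This value is uncertain as a measure of Rpl5 mRNA: 6.16% of its stretches are unique and 45.3% are also found in the overlapping gene Fam69a. Of the 6 members that sit in the 5S particle or bind Mdm2 (Rpl5, Rpl11, Rpl23, Rpl26, Rps3, Rps7), Rpl5, Rpl23 (-0.30) and Rpl26 (-0.45) fell. Rpl11, the partner of Rpl5, had -0.18 (adjusted p = 0.482) and Rps3, a small-subunit protein at the mRNA entry, had 0.05 (adjusted p = 0.673).

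The small-subunit members with the smallest adjusted p were Rps21 (chr2:180257377-180258445, plus strand), Rps18 (chr17:33951999-33956001, minus strand) and Rps26 (chr10:128624534-128626747, minus strand). Rps21 stood at 34.1, 31.6 and 31.0 CPM in mutants, against 42.6 to 47.8 CPM with a median of 44.8 in controls (log2 change -0.47 ± 0.074, adjusted p = 0.000436); the change was -0.19 with library size alone, and the call was lost with 1 fit over all 5 groups (adjusted p = 0.0514). Rps18 stood at 22.5, 21.9 and 22.4 CPM, against 30.9 to 38.7 CPM with a median of 32.6 (-0.58 ± 0.092, adjusted p = 0.000447). Both sets of mutants lay below all of their controls. Rps26, which joins the small subunit late and lines the mRNA exit, stood at 33.3, 31.9 and 27.9 CPM in mutants, against 38.8 to 54.9 CPM with a median of 45.8 in controls (-0.56 ± 0.12, adjusted p = 0.00241). On the large subunit, Rpl35a stood at 28.9, 26.5 and 24.3 CPM in mutants, against 37.2 to 48.6 CPM with a median of 40.8 in controls (-0.64 ± 0.11, adjusted p = 0.000947). Rps27 had the largest drop in the fit (-0.94 ± 0.27, adjusted p = 0.0166), at 0.601 to 0.882 CPM in mutants and 1.13 to 1.70 CPM in controls, from 12 to 26 counts a library, and it missed the threshold with library size alone (adjusted p = 0.0552), with no filter on low counts (0.0616) and without mutant 3 (0.0722).

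Of 10 ribosomal protein genes that are mutated in human Diamond-Blackfan anaemia, an inherited failure of red cell production, 5 fell: Rps19 (-0.38), Rpl5, Rps26, Rpl35a and Rpl26. Their median was -0.41 and all 10 changes were negative; of all members tested, 35 of 75 were lower and 68 of 75 negative, and among all genes 20.4% were lower. Rps6, read by antibodies as a gauge of mTOR signalling, had -0.31 (adjusted p = 0.519) at 0.590 to 0.882 CPM in mutants and 0.310 to 1.18 CPM in controls, and Rps27a, which is made as a fusion with ubiquitin, had -0.06 (adjusted p = 0.804). Of the exit tunnel proteins, Rpl39 fell (-0.49) and Rpl4 (-0.14) and Rpl17 (-0.15) were not called. Rpl24 was below the filter on low counts.

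**Figure D4:**
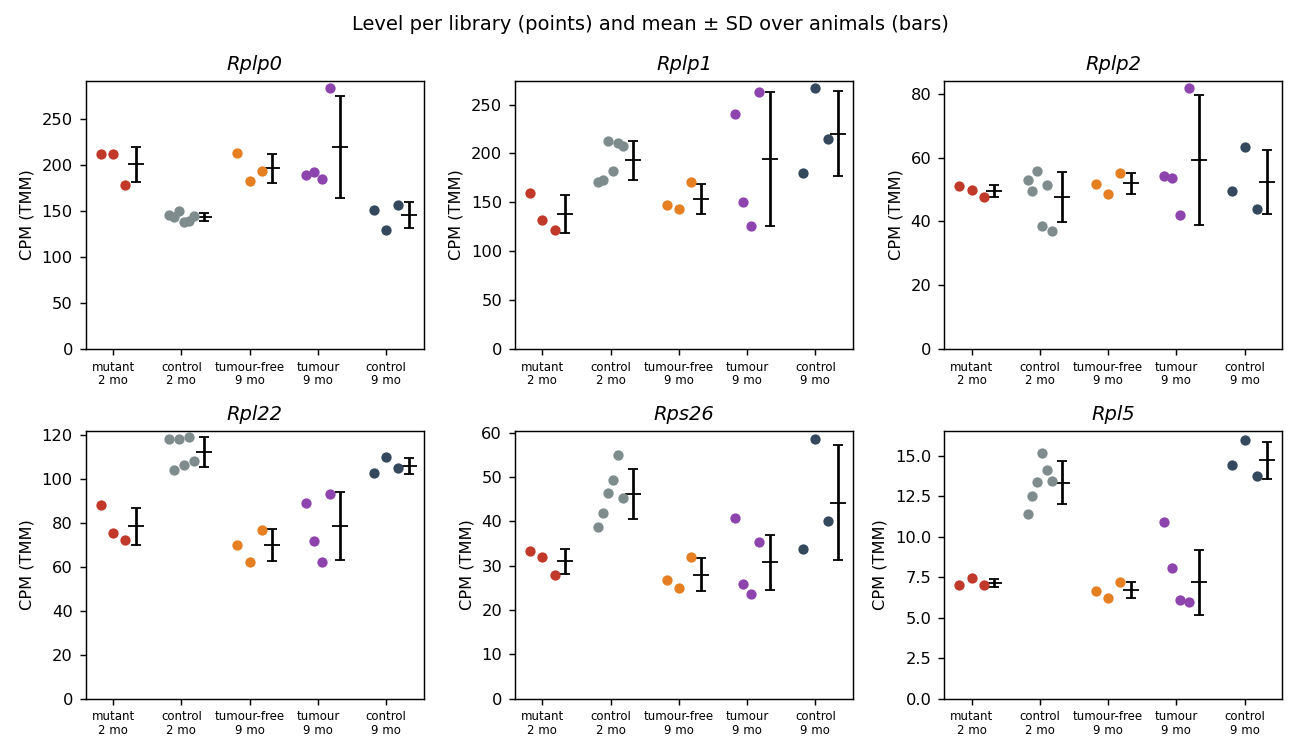
Level (CPM, TMM scaling) of the 3 stalk genes and of Rpl22, Rps26 and Rpl5 in each of the 19 libraries (points), with the mean ± SD over animals (bars; the 2 tumours of mutant 1 averaged). Rplp0 lies above its controls in all mutant libraries, at 179 to 213 CPM against 138 to 149.7 CPM at 2 months, while Rpl22 and Rpl5 lie below.

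In tumour-free liver at 9 months, 4 of 74 members tested fell (Rpl5, Rpl22, Rpl36 and Rps26) and 1, Rplp0, rose. The background was 16.8% lower and 18.1% higher among 14352 genes, so the called share of the members was under it. The median of the members was still -0.28, against -0.01 for all genes, and with library size alone these were 0.16 and 0.42, with 1 member lower and 7 higher, on a background of 8.21% lower and 39.8% higher. Of the 35 members called lower at 2 months, 32 had a negative change here, beside 60 of all 74 members tested and 7267 of all 14352 genes. The 4 members called lower here were also called lower at 2 months. The share of all genes called lower at both times was not computed. Hepatocyte markers summed to 41547 to 42558 CPM in tumour-free liver and 127198 to 134115 CPM in controls, and macrophage markers to 717 to 771 CPM and 229 to 313 CPM; their part was not tested.

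Rpl5 stood at 6.67, 6.19 and 7.19 CPM in tumour-free liver, against 14.4, 16.0 and 13.8 CPM in 9-month controls (log2 change -1.15 ± 0.16, adjusted p = 0.000858), with no overlap. Rpl22 stood at 70.0, 62.2 and 76.9 CPM, against 103, 109.7 and 105 CPM (-0.61 ± 0.13, adjusted p = 0.00923), again with no overlap; the call was lost with library size alone (-0.17) and without tumour-free sample 2 (-0.51, adjusted p = 0.0613). Rps26 stood at 26.9, 24.9 and 32.1 CPM, against 33.8, 58.7 and 40.1 CPM, and its call (-0.67, adjusted p = 0.0459) sat at the threshold (adjusted p 0.0108 to 0.424 over the alternatives). Rpl36, a small protein of the large subunit, had 1.23 to 1.84 CPM, against 2.49 to 4.35 CPM, from 28 to 77 counts a library (-1.08 ± 0.32, adjusted p = 0.0323), a call lost with library size alone, with pseudogene counts added, and without control 2 or 3 or tumour-free sample 2 or 3. Rplp0 stood at 214, 182 and 194 CPM, against 151, 129.6 and 157 CPM (0.43 ± 0.14, adjusted p = 0.0482); the groups did not overlap, but the call was lost when any 1 library was left out.

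The 9-month controls spread more than the 2-month ones. Over the 52 members with a median count of at least 100, control 2 stood 0.28 above the mean of the 3 controls on the log2 scale (median member), while controls 1 and 3 stood at -0.14 and -0.09. Without control 2 the median change of tumour-free liver was -0.09, against -0.28 with it, and 2 members were lower. Without tumour-free sample 2, 1 member was lower, and without control 1, 7 were. Among all genes, 2272 of 14816 were lower without control 2, 1496 of 14607 without tumour-free sample 2 and 2270 of 14846 without control 1. The 2-month libraries lay closer: mutants at -0.25, -0.35 and -0.43, and controls between -0.10 and 0.16. Immediate early and heat shock markers, summed over 9 genes, ran from 92.9 to 3582 CPM in 9-month controls and from 100 to 273 CPM in 2-month controls. They ran from 99.8 to 1060 CPM in tumour-free liver and from 142 to 1699 CPM in tumours. Their part in the members' values was not tested.

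Tumours showed 1 member lower, Rpl5, and none higher among 75 tested, with backgrounds of 11.3% and 13.8% of 14332 genes. At an unadjusted p under 0.05, 3 members were lower and 1 higher, while 5690 of the 14332 genes had such a p in either direction. DESeq2 and limma voom also called 1 member lower and none higher. The members' median was -0.15, against 0.01 for all genes, and 0.29 against 0.48 with library size alone, where 4 were higher and none lower, on a background of 32.5% higher and 5.71% lower. Tumours and tumour-free liver were set against the same 3 controls, so their values are not independent. Hepatocyte markers summed to 44559 to 70700 CPM in tumours and macrophage markers to 489 to 1166 CPM, against the control values above; their part was not tested.

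The tumours did not move as one. On the scale of the 52 well-counted members, the tumour of mutant 3 stood 0.19 above the 9-month controls (median member) with 41 members above, and the tumour of mutant 2 stood at -0.43 with 6 above. The 2 tumours of mutant 1 differed as well, at 0.06 and -0.25. The share of all counts held by the members followed: 0.427% and 0.350% in the tumours of mutant 1, 0.316% in that of mutant 2 and 0.449% in that of mutant 3, against 0.255%, 0.341% and 0.278% in 9-month controls. Without the tumour of mutant 2 the median change was 0.04. Rplp0 in the tumour of mutant 3 reached 284 CPM, and the other 3 tumour libraries lay between 185 and 193 CPM (log2 change 0.57 ± 0.23, adjusted p = 0.109, past the threshold with library size alone at 1.02). Rpl5 stood at 10.9 and 8.04 CPM in the tumours of mutant 1, and at 6.07 and 5.97 CPM in the others, against 13.8 to 16.0 CPM in controls (-1.06 ± 0.24, adjusted p = 0.0185), and leaving out any 1 control lost the call. Rpl22 had -0.45 (adjusted p = 0.128).

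**Figure D5:**
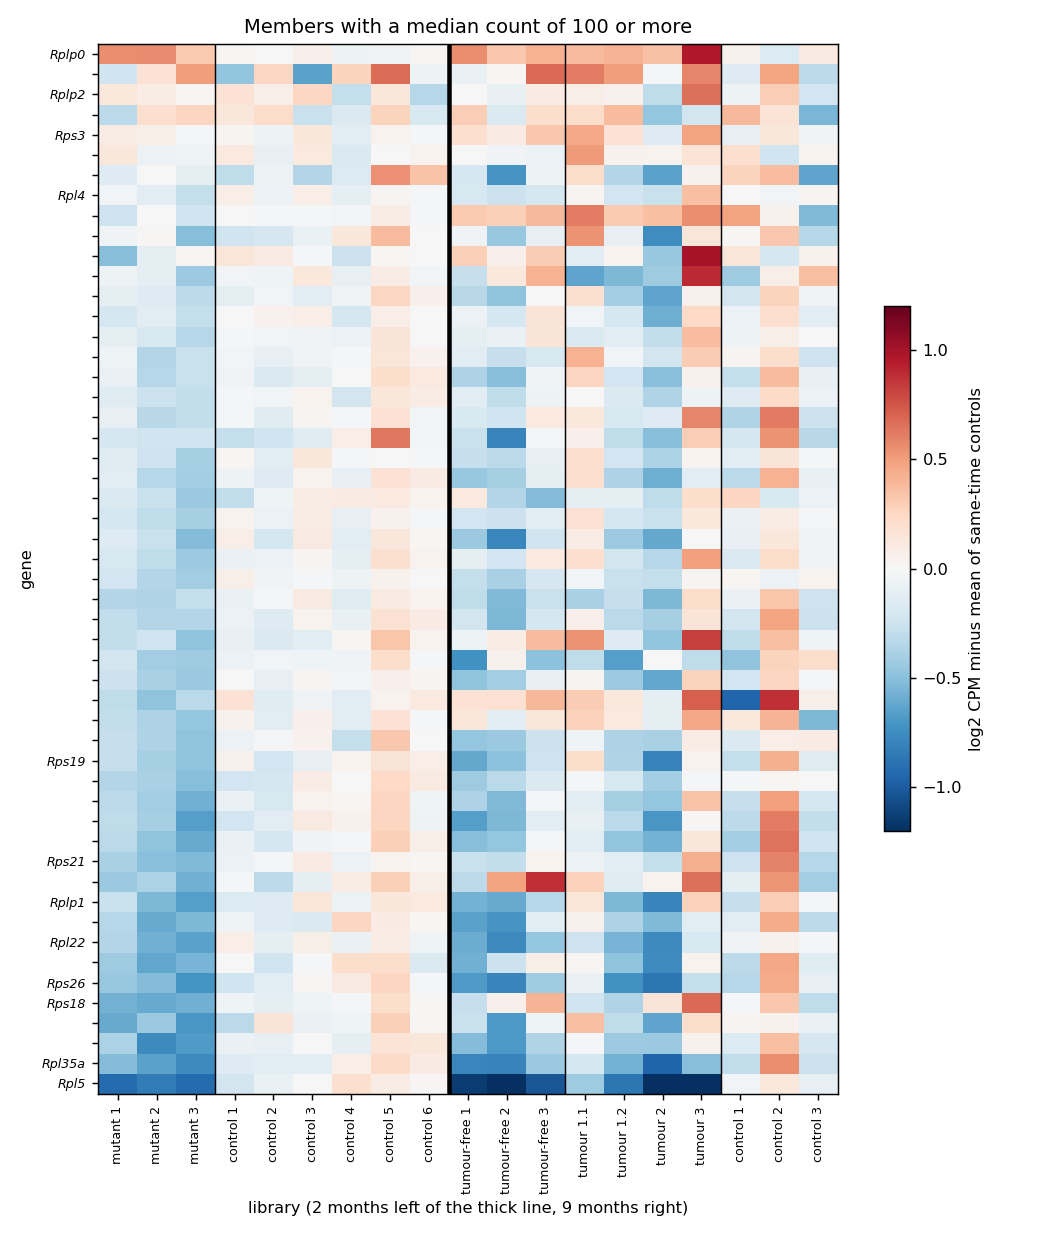
Log2 CPM of the 52 members with a median count of at least 100 in each library, minus the mean of the controls of the same time; rows are ordered by the change in 2-month mutants with some genes labelled, blue is lower and red higher. The 3 mutants at 2 months are blue in most rows (4 to 7 members above 0), tumour 2 is blue and tumour 3 red in most rows (6 and 41 above), and Rplp0, the top row, is red in all mutant libraries.

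Set against tumour-free liver of the same animals, tumours gave no member past the threshold in either direction (76 tested; background 0.0137% of 14566 genes higher and 0% lower). This fit did not use the pairing by animal. With the animal as a block, 0 members were called in either direction as well, and their median was 0.12. DESeq2 and limma voom called none as well, and 1 member, Rpl12, had an unadjusted p under 0.05 (log2 change 1.08, adjusted p = 0.45). Of the 14566 genes, 1454 had such a p in either direction. The median was 0.13, with 59 of 76 members positive, against 0.02 for all genes. Leaving out the tumour of mutant 3 left 38 of 76 positive, and leaving out that of mutant 2 gave a median of 0.27.

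Between the 2 sets of controls, 9 members were lower at 9 months and none was higher (75 tested; background 4.64% lower and 7.29% higher of 13545 genes), among them Rps18, Rps25, Rpl34, Rpl7, Rps28, Rpl30, Rps15a and Rps7. Rps18 stood at 12.4, 15.7 and 10.2 CPM in 9-month controls, against 30.9 to 38.7 CPM with a median of 32.6 in 2-month controls (-1.40 ± 0.14, adjusted p = 0.000138). Rps25 had -0.77, Rpl34 -0.77, Rpl7 -0.40 and Rps28 -0.95. Age and run coincide here, and Rps18 (13.3% unique) and Rps25 (27.2%) are members with much shared sequence. Without 9-month control 3, 4 members were lower (274 of all 13778 genes), and without control 2, 13 were (250 of all 13673 genes). The effect of the transgene in tumour-free liver at 9 months minus that at 2 months differed past the threshold in no member by edgeR, DESeq2 or limma voom (background 0.462% of 14707 genes higher and 1.05% lower, 1.52% in all). At an unadjusted p under 0.05, 2 members differed, Rps18 (0.65) and Rps28 (0.84), and none was in the other direction. Of all 14707 genes, 1882 had such a p in either direction.

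Of the subunits that the naming rule leaves out, Rps3a1 (-0.31) and Rack1, a scaffold on the small subunit (-0.25), were lower at 2 months, and Fau, another small-subunit protein made as a fusion, had -0.39 (adjusted p = 0.173). Of the paralogs, Rps27l, a p53 target in human cells, was lower in 2-month mutants, tumour-free liver and tumours (-0.54, -0.73 and -1.04). Rps4l, annotated as a transcribed processed pseudogene related to Rps4x, was higher: 25.3, 30.7 and 30.9 CPM in 2-month mutants, against at most 19.3 CPM and a median of 12.6 CPM in controls (1.11 ± 0.17, adjusted p = 0.00029). It was also higher in tumour-free liver (1.92) and tumours (1.44), while Rps4x, the X-linked gene, had 0.01, -0.05 and 0.14. Reads of such near-copies can be assigned to the wrong one.

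The other genes with TOP mRNAs (translation elongation factors, Npm1, Naca and the like) gave 7 lower and none higher of 21 at 2 months, with a median of -0.22. The 4 with the smallest adjusted p were Naca (-0.46), Eif4b (-0.45), Eef1b2 (-0.30) and Eif3h (-0.26). They gave 5 lower in tumour-free liver and 1 in tumours. Mitochondrial ribosomal proteins, which are encoded in the nucleus and serve the separate ribosomes of mitochondria, gave 35 lower and 1 higher of 77 at 2 months, 25 lower in tumour-free liver and 19 lower in tumours, with medians of -0.24, -0.40 and -0.45. Mrpl38 (-0.81), Mrpl15 (-0.59), Mrps27 (-0.87) and Mrpl47 (-0.76) led at 2 months. Of the 14 proteasome core genes, 2 were lower and none higher at 2 months, with a median of -0.16. Beside these lists, the share of all genes tested that was lower was 20.4% at 2 months, 16.8% in tumour-free liver and 11.3% in tumours.

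Regulators of ribosome supply went both ways. The counts at 2 months below stand beside a background of 22.3% higher and 20.4% lower among all 13773 genes tested. Eif6, which keeps the large subunit from joining the small one, stood at 89.5, 95.7 and 100.3 CPM in 2-month mutants, against 40.7 to 52.2 CPM with a median of 47.7 in controls, and rose by 1.01 ± 0.086 (adjusted p = 4.71e-06, edgeR quasi-likelihood); it rose by 0.75 in tumour-free liver and 0.84 in tumours. Of the 27 initiation factors 3 were higher and 4 lower at 2 months, among them Eif1, which guards start codon choice (-0.57). Eif4ebp1, an mTOR substrate that blocks cap-dependent initiation, was higher (1.19), and its relative Eif4ebp2 (-0.72), the mTOR inhibitor Deptor (-0.75) and Mycl, a Myc family member (-3.16), were lower. Larp1, which holds TOP mRNAs and is named for its role after its values were seen, was lower (-0.39); 8 of the 19 genes of TOP and growth control were lower and 1 higher. Of 17 chaperones and importers of ribosomal proteins 3 were higher and 3 lower, among them Aamp (-0.56) and Bccip (-0.35), which were lower, and Riok2 (0.43), which was higher. Of 14 RNA polymerase I genes, which make ribosomal RNA, 2 were higher, Taf1c (1.04) and Polr1e (0.52), and 1 lower, Taf1d (-0.55).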

How the data were processed

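RNA-seq of 19 mouse liver libraries was available as 1 table of whole-number read counts per gene, deposited by the authors without normalization. STAR 2.6.1a, RSEM, bedtools 2.27.1, DESeq2 1.22.2 and build GRCm38 are named per the submitters' processing notes, with neither roles nor order, and the counting of reads that match several genes is not stated. All value columns were matched to samples by name.

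From the counts, edgeR 4.0.16 (R 4.3.3) fitted quasi-likelihood models on genes passing filterByExpr (minimum count 10) with TMM scaling, and p-values were adjusted by Benjamini-Hochberg over all genes tested, with a threshold of 0.05. Each comparison used its own groups, and the 2 tumours of mutant 1 were summed. The SE given is the size of the log2 change divided by the square root of the quasi-likelihood F, not an error reported by the fit. CPM were TMM scaled. DESeq2 1.42.0, limma 3.58.1 (voom), other scalings and filters, added pseudogene counts, and leaving out libraries were the alternatives. The fits were tested on simulated counts. The members and lists were chosen with earlier results of these data known. Named were the 4 called members with the smallest adjusted p and the 2 with the largest change in each direction, the 5 highest and 3 lowest by level per length, and members of role groups. Some genes that this rule names are not reported here.

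Coordinates came from GENCODE M21 (GRCm38). No pair of libraries was a duplicate. By a chi-square of the counts averaged over genes, 2-month controls 4 and 6 were the closest pair within a group. Their value was 6.47, against 18.9 or more for every other such pair. Among 2-month controls, pairs within 1 to 3 had 19.8 to 36.2 and pairs within 4 to 6 had 6.47 to 20.7. Pairs across these sets had 39.9 to 49.8. The part of this in the members' values was not tested. Tumour and tumour-free samples share animals, whose deviations correlated at 0.198, 0.310 and 0.0264; elsewhere equal numbers do not mark shared animals. Depth was 14294611 to 22062341 counts per library. The labels give separate mice as replicates.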

Additional observations from a re-analysis of the deposited data

Results flagged for a closer look

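In the 6 controls at 2 months, 2 members had 1 library far from the others, in both cases control 5. Rpl34 stood at 65.5 CPM there and at 54.0 to 56.2 CPM in the other 5, with a gap of 0.807 of the whole range. Rps18 stood at 38.7 CPM there and at 30.9 to 33.7 CPM in the others, with a gap of 0.638 of the range. In the same library 51 of the 52 well-counted members lay above the mean of the controls. In all, 17 tests were made on these same 6 controls, each on 1 member apart from 1 on the members' share of all counts, and 2 found a library that stood apart. Chance gives about 1 in 20 per test, and since both are control 5 they are not independent.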

How the results depend on the processing

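With library size alone, 7 members were lower and 4 higher in 2-month mutants (median -0.034), 1 lower and 7 higher in tumour-free liver (0.16), and 0 lower and 4 higher in tumours (0.29); Rplp2 turned to 0.41 in tumour-free liver and Rplp1 to 0.23 in tumours. With no filter on low counts, 22 of 76 members were lower at 2 months, against 2422 of all 26639 genes. In tumour-free liver 7 were lower and 0 higher, against 2477 and 2726 of all 27101 genes, and 1 was higher between controls (1008 of 26706 genes). With 1 fit over all 5 groups, which tested 15167 genes, 16 members were lower at 2 months, against 2380 genes. In tumour-free liver 11 were lower, against 2623 genes. In tumours 5 were lower and 1 higher, against 3007 and 3605 genes. DESeq2 gave 8 lower in tumour-free liver (2623 of 14352 genes) and 2 higher between controls (1239 of 13545 genes). RLE size factors and protein-coding genes alone each gave 0 higher in tumour-free liver. Without the 9-month animals numbered 1, 0 were higher in tumour-free liver and 2 between controls.

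With a replicate block, 6 of 75 members were lower at 2 months, against 1537 of all 13773 genes. In tumour-free liver 0 were higher (2669 of 14352 genes), and between controls 1 was lower (118 of 13545 genes). Under this block Rplp2 at 2 months was -0.073, and Rps27 (adjusted p = 0.0881) and Rplp1 (0.121) at 2 months missed the threshold. The numbers do not pair the samples of these comparisons, whereas they do pair tumour and tumour-free samples. Same-numbered deviations correlated at -0.139, 0.302 and -0.284 at 2 months.

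Leaving out 1 library at a time gave 20 to 36 lower at 2 months, 1 to 7 lower and 0 to 0 higher in tumour-free liver, 0 to 1 lower and 0 to 1 higher in tumours, and 4 to 13 lower and 0 to 2 higher between controls (median -0.23 to 0.062). In these runs 2032 to 2775 of all genes were lower at 2 months and 1496 to 2272 in tumour-free liver. The range was 661 to 1458 in tumours and 250 to 772 between controls. Leaving out 1 library also turned Rplp2 in tumour-free liver (-0.14 to 0.15), Rplp1 in tumours (-0.46 to 0.051) and Rplp2 in tumours (-0.12 to 0.38). Without the 50 most abundant genes, the members' median share was 0.469% in 2-month mutants, 0.493% in 2-month controls, 0.461% in tumour-free liver, 0.549% in tumours and 0.417% in 9-month controls. The cause of these shifts was not tested. Of the other single-gene values, 421 kept direction and side of the threshold, 44 lost it and 7 gained it.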
